A study of Mus musculus with 2 samples.

Results

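C1q high Ms4a7 tumour macrophages are the cells described here: the Csf1r-positive cells of mouse tumours with the highest joint level of C1qa, C1qb, C1qc, Ms4a7 and Ch25h. They were chosen in 2 steps. Base cells were barcodes with at least 200 genes, at most 10% mitochondrial counts, fewer than 2 counts of the mCherry construct and at least 1 count of Csf1r, the receptor of the macrophage growth factor CSF-1. Each base cell was scored by the mean of ln(1 + counts per 10000) over the 5 genes, and the 1000 highest of 9655 base cells were taken, out of 13837 barcodes in all. Of these C1q high cells, 601 came from the young library and 399 from the adult library (members in the plots).

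Both libraries are single-cell RNA-seq (10x Genomics Chromium 3' version 2) of cells from pooled tumours, sorted on the red fluorescent protein mCherry. The young library is from mice aged 4 weeks and the adult library from mice aged 24 weeks, and both carry the label d7. The labels name neither the strain nor the tumour line nor the source of mCherry. Each age is 1 library of pooled tumours, so there is no replicate and no test of age. Age, pool, sort, library and sequencing run cannot be told apart. All intervals are 95% and cover counting error only.

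C1q is the recognition molecule of the classical complement pathway. It is built from the A, B and C chains, the products of C1qa, C1qb and C1qc, and in many tissues macrophages are its main source. Ms4a7 encodes a tetraspan membrane protein found in macrophages, and Ch25h encodes cholesterol 25-hydroxylase, an interferon-inducible enzyme that makes the oxysterol 25-hydroxycholesterol. In tumours, C1q-expressing macrophages are known as a population distinct from freshly recruited monocytes, often with high levels of Apoe and of antigen presentation genes.

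The C1q chain genes lie side by side on the minus strand of chromosome 4 (mm10): C1qb at chr4:136880129-136886187, C1qc at chr4:136889804-136893065 and C1qa at chr4:136895917-136898803. Ms4a7 lies at chr19:11321039-11336146 and Ch25h at chr19:34473778-34475164, both on the minus strand. The bases before the starts of 2 chain genes are shown as a description of genes of the rule. They are from RefSeq on GRCm38.p6, 5′ to 3′ along the gene, with 2 motifs in capitals: GAGGAA (on either strand, so also TTCCTC), the core bound by the myeloid factor PU.1, and TGCTGA, part of the MAF recognition element. C1qa was not matched in the promoter table.
C1qb, chr4:136886201-136886450, minus strand: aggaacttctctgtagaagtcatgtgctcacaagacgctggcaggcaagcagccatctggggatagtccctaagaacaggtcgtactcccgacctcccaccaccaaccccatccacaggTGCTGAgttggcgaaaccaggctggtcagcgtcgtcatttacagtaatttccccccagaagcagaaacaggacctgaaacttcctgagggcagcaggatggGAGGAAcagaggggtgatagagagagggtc
C1qc, chr4:136893066-136893164, minus strand: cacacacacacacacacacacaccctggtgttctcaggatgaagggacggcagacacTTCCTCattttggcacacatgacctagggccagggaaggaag
The C1qb stretch ends at the RefSeq start and holds GAGGAA at positions -30 to -25 and TGCTGA at -131 to -126. The C1qc stretch stops at the GENCODE gene start, 151 bases upstream of the RefSeq start. It holds GAGGAA on the opposite strand at -193 to -188 from the RefSeq start. Among 32851 promoters, 23.3% held GAGGAA and 16.1% held TGCTGA in the 250 bases before the start, searched on both strands. The 250 bases before Ms4a7 and before Ch25h held neither. A match is a description of letters and not a measured binding site.

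The young library held 7558 barcodes and 84862471 unique molecular identifiers (UMIs, 1 per captured RNA molecule), and the adult library 6279 barcodes and 70988070 UMIs. C1q high cells had a median of 11841 UMIs and 2836 genes in the young library and 12546 UMIs and 2879 genes in the adult library. Other base cells were shallower, with medians of 10148 UMIs in young and 9856 in adult. Median mitochondrial shares were 1.55% and 1.68% in C1q high cells against 1.58% and 1.83% in other base cells. A single mCherry UMI, the most the rule allows, was found in 19.3% of young and 18.8% of adult C1q high cells, against 14.97% and 15.7% of other base cells. Some results recomputed at equal depth and at 0 mCherry UMIs are given below. Over all alternatives, 740 of 2565 values of named genes moved beyond their counting interval, and most of these are not listed. The libraries share 111 barcode sequences, which 5 young and 4 adult C1q high cells carry. Scrublet called 1 doublet in each library, far fewer than such libraries hold, so it has not worked here and no doublets were removed.

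The score set no natural border. Its highest value was 3.84, the median of C1q high cells was 2.85 and the median of all base cells 1.31. The last cell inside scored 2.604 and the first outside also 2.604 at 4 digits, and within 0.1 of that limit there were 257 C1q high and 270 other base cells. The score had a low and a high mode in both libraries. Between them, the bin from 1.2 to 1.3 held 82 young and 65 adult cells. The limit lay on the falling side of the high mode, where the bin from 2.6 to 2.7 held 162 young and 105 adult cells. The histogram of the score, which the rule used, showed no gap at the limit.

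**Figure D1:**
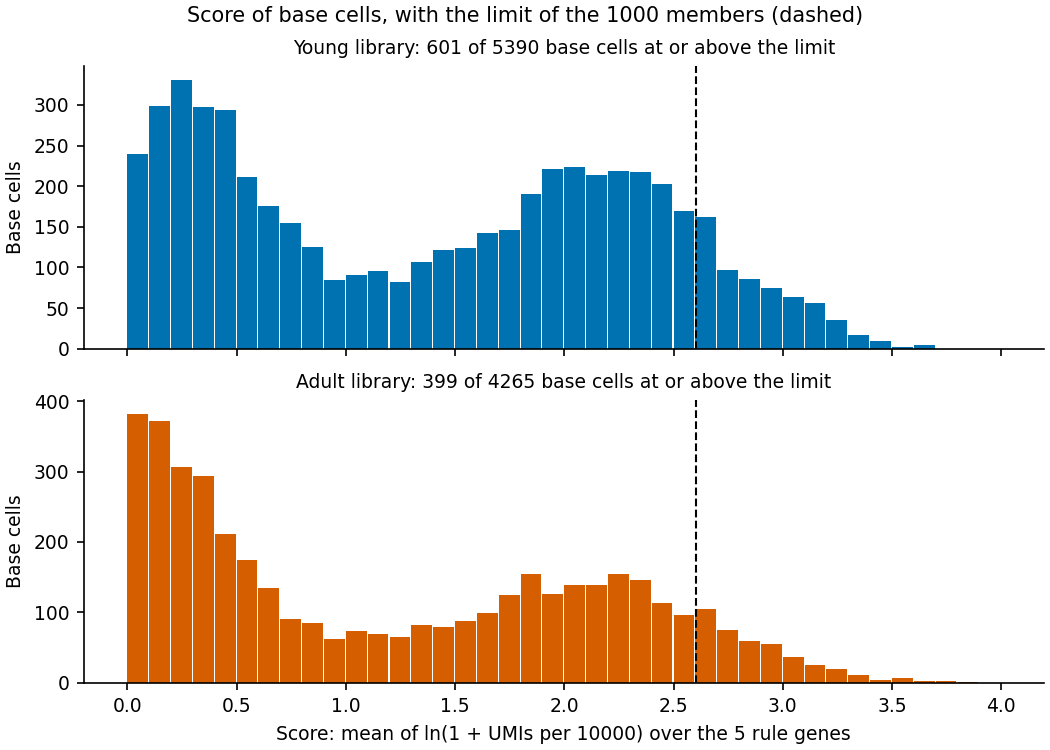
Number of base cells (y axis) by score (x axis, mean of ln(1 + UMIs per 10000) over the 5 genes) in the young library (top) and the adult library (bottom), with the limit as a dashed line. Both libraries have a low and a high mode, and the limit of 2.604 cuts the upper side of the high mode with no gap.

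C1q high cells were 11.2% of young base cells (601 of 5390, exact binomial interval 10.3 to 12.02) and 9.36% of adult base cells (399 of 4265, 8.50 to 10.3). The ratio of shares was 1.19 (1.06 to 1.34). Without Ch25h in the score the ratio was 1.04, with 567 young and 433 adult cells. The share is of mCherry-sorted, Csf1r-positive cells, so the sort and the rule can set it, and it is no estimate of C1q high cells in the tumour.

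Levels are given as counts per 1000000 UMIs (CPM) of the summed UMIs of a group of cells. The sums were 7524269 UMIs for young and 5306282 for adult C1q high cells. The 5 genes of the rule are higher in C1q high cells by choice and are given as a description. C1qa, the A chain, had 4836 CPM in young and 4845 CPM in adult C1q high cells against 1044 and 992 in other base cells. C1qb, the B chain, was at 7267 and 6522 CPM against 2196 and 1849. C1qc, the C chain, was at 4332 and 3983 CPM against 1141 and 921. The young over adult ratios were 0.998 for C1qa (0.982 to 1.01), 1.11 for C1qb (1.10 to 1.13) and 1.09 for C1qc (1.07 to 1.11). Both ages were chosen at 1 score limit, with median scores of 2.85 in young and 2.84 in adult, so nothing on age is read from the genes of the rule.

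Ms4a7 had 708 CPM in young and 1080 CPM in adult C1q high cells, against 182 and 181 CPM in other base cells. Ch25h was at 260 and 160 CPM, against 55.8 and 28.3. The young over adult ratio was 0.656 for Ms4a7 (0.631 to 0.681) and 1.62 for Ch25h (1.498 to 1.76). In other base cells the same ratios were 1.01 for Ms4a7 and 1.98 for Ch25h.

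Per cell, the chains were near universal and Ch25h was not. The cells were chosen on these genes, so these shares and their contrast with other base cells describe the choice. After thinning each cell to 4000 UMIs, which left 588 young and 391 adult C1q high cells, C1qb was detected in 100% of cells of both ages. Unthinned, it was detected in 100% too, against 80.4% of young and 72.4% of adult other base cells. Ms4a7 was detected in 81.6% of young and 90.03% of adult thinned cells (95.2% and 99.5% unthinned). Ch25h was detected in 44.7% and 31.2% (62.1% and 46.9% unthinned), so most thinned C1q high cells had no UMI of it. Thinned other base cells with a Ch25h UMI were 11.7% and 6.55%. Free RNA can give a cell a UMI of a gene it does not express. In barcodes with T cell genes and no Csf1r UMI, which should lack the chains, C1qb was detected in 40.0% of 40 young cells (median 5585 UMIs) and 32.1% of 106 adult cells (median 4124 UMIs), at 86.3 and 345 CPM. Ms4a7 was seen in 0 of the 40 young and 3.77% of the 106 adult T cells.

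The label was checked against markers of macrophages and of the other cells the sort could hold. All 12 pan-macrophage genes were detected in C1q high cells, with summed levels of 16389 CPM in young and 13959 CPM in adult, against 17259 and 14490 CPM in other base cells. Csf1r is among the 12 and was required of every base cell, so its detection was set by the rule. It was at 382 and 412 CPM, and Cd68, a lysosomal macrophage marker, at 679 and 618 CPM. Adgre1, which encodes F4/80, was higher in C1q high cells, at 150 against 95.9 CPM in young and 186 against 73.3 CPM in adult. Cd14, the lipopolysaccharide coreceptor, was called lower in young only, at 825 against 1338 CPM, and was at 733 against 1074 CPM in adult.

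All 4 epithelial genes were at 0 in C1q high cells. The 9 T cell genes summed to 6.51 CPM in young and 23.6 CPM in adult, against 24.1 and 17.4 CPM in other base cells, with Cd4 at 0. The 6 NK cell genes summed to 0.930 and 0.754 CPM. The 5 B cell genes summed to 9.83 and 13.2 CPM, against 4.40 and 3.20 CPM in other base cells. Of the 7 fibroblast genes, Col1a1 and Pdgfra were at 0 and the sum was 3.72 and 5.65 CPM. Neutrophil genes summed to 58.7 and 64.1 CPM, below the 195 and 257 CPM of other base cells, with Camp at 0. Dendritic and endothelial lists were not near 0. The 5 genes of type 1 conventional dendritic cells (cDC1) summed to 553 and 483 CPM, against 523 and 387 CPM in other base cells. Of these sums, 519 and 432 CPM came from Irf8, which macrophages also express, while Xcr1 was at 0.665 and 1.13 CPM and Clec9a at 3.19 and 1.32 CPM. The 5 cDC2 genes summed to 55.3 and 98.8 CPM, against 58.6 and 97.0 CPM, with Cd209a and Flt3 at 0. The 5 genes of mature dendritic cells summed to 3.85 and 15.8 CPM, against 28.6 and 33.7 CPM. The 4 endothelial genes summed to 35.6 and 30.5 CPM, against 40.9 and 32.1 CPM, with Cldn5 at 0. Of resident tissue macrophage genes, 5 of 15, Lyve1, Cd163, Timd4, Vsig4 and Cd209f, were at 0 in C1q high cells of both ages. In thinned cells, 0 of 588 and 0 of 391 had a Lyve1 UMI, which allows shares of up to 0.625% and 0.939% by the exact binomial interval. This limits cells with a UMI at that depth, not cells that express the gene.

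C1q high cells were then compared with other base cells over all genes. A gene counted as measured if the higher of the groups compared reached 20 CPM, and was called higher or lower at 1.5-fold or more with an interval that excluded 1. Of 4684 genes measured in the young library, 65 were higher (1.39%) and 110 lower (2.35%). Of 4702 measured in the adult library, 201 were higher (4.27%) and 201 lower (4.27%). In both libraries, 50 of 4479 genes were higher (1.12%) and 85 lower (1.9%), and none was called in opposite directions. The genes called higher include the 5 genes of the rule in each library. The cells were chosen on the same counts, so these numbers describe the choice and are no test. The median log2 ratio over all measured genes was 0.03 in young and 0.08 in adult. With median-of-ratios size factors in place of total UMIs, the adult median log2 ratio was -0.05, and the adult split became 125 higher and 301 lower.

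Beside the genes of the rule, 12 genes higher in both libraries were named by size. Cd72, a C-type lectin family coreceptor best known in B cells, had 260 CPM in young and 276 CPM in adult C1q high cells against 91.2 and 50.1 CPM in other base cells. Its ratios were 2.85 (2.70 to 3.002) and 5.51 (5.15 to 5.90). It was detected in 49.1% and 48.3% of thinned C1q high cells against 22.5% and 12.3% of other base cells. Slamf9, another immune cell surface receptor, was at 178 and 228 CPM against 93.4 and 74.7.

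Apoe, the apolipoprotein that carries exported cholesterol, had 2702 CPM in young and 4629 CPM in adult C1q high cells against 1262 and 1269 CPM. The ratios were 2.14 (2.11 to 2.18) and 3.65 (3.59 to 3.70). Lgmn, the lysosomal asparaginyl endopeptidase legumain, was at 1218 and 1224 CPM against 656 and 427. Cd81, a tetraspanin, was at 67.4 and 157 CPM against 37.3 and 43.3, and Tspan4, another tetraspanin, at 70.6 and 59.4 CPM against 39.9 and 29.0. Timp2, a tissue inhibitor of metalloproteinases, was at 53.2 and 84.8 CPM against 21.9 and 23.3. Ckb, the brain-type creatine kinase, was at 371 and 214 CPM against 154 and 76.0. All of these were higher in both libraries.

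**Figure D2:**
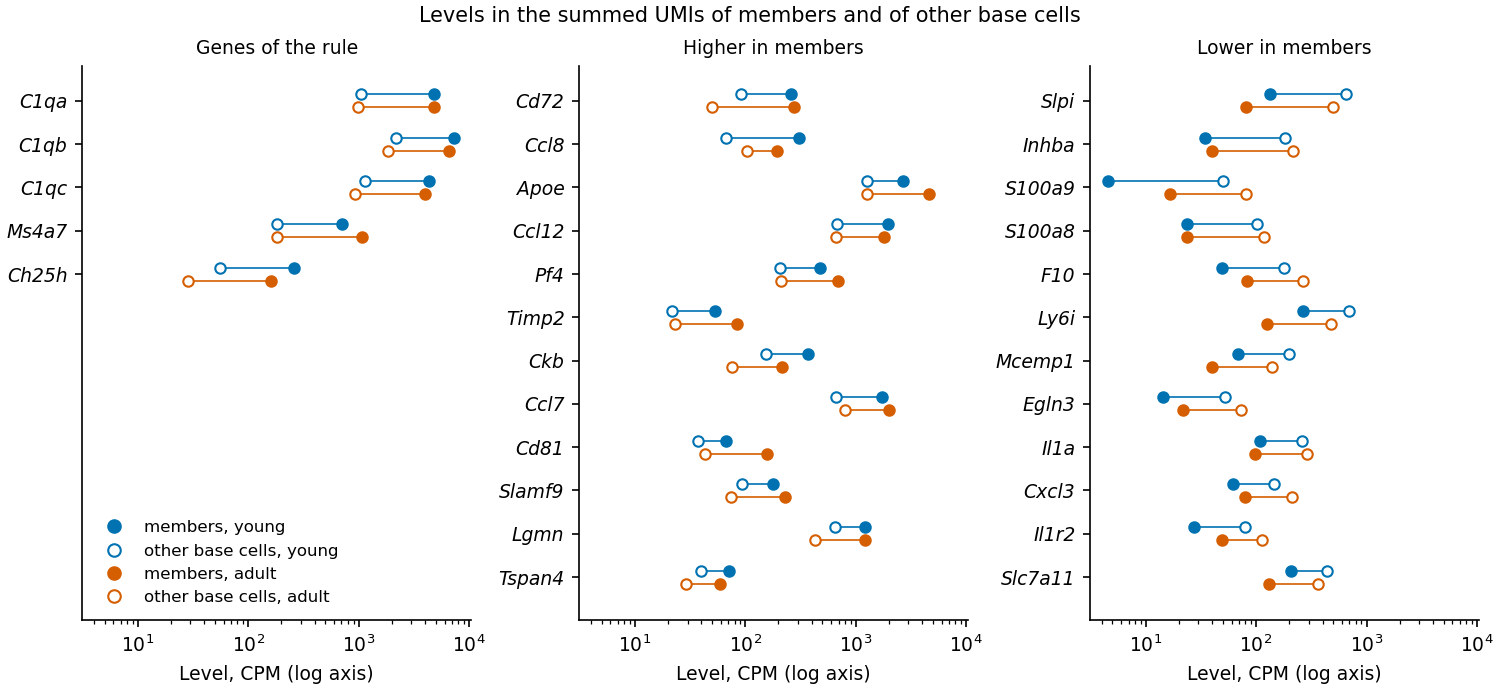
Level in CPM (x axis, log scale) of each gene in the summed UMIs of C1q high cells (filled) and other base cells (open), young in blue and adult in orange. The panels hold the 5 genes of the rule, the 12 genes named as higher and the 12 named as lower; Cd72 lies at 260 and 276 CPM in C1q high cells against 91.2 and 50.1 CPM, and Slpi at 134 and 80.3 CPM against 658 and 492 CPM.

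Among chemokines, the monocyte attractants Ccl7 and Ccl12 were higher in both libraries and the neutrophil attractants Cxcl1, Cxcl2 and Cxcl3 lower. Ccl12 had 1942 CPM in young and 1788 CPM in adult C1q high cells against 682 and 658 CPM, with ratios of 2.85 (2.79 to 2.90) and 2.72 (2.65 to 2.78). Ccl7 was at 1717 and 1993 CPM against 667 and 808. Ccl2 was at 1615 and 1834 CPM against 967 and 1352, and was called higher in young only. Whether the ages differ was not tested. Pf4, platelet factor 4, which macrophages also make, was at 476 and 686 CPM against 208 and 213.

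Ccl8, a further CC chemokine of the same cluster on chromosome 11, showed the largest young ratio of the 12 named genes. It had 307 CPM in young and 192 CPM in adult C1q high cells against 67.0 and 103 CPM in other base cells. The ratios were 4.58 (4.34 to 4.83) and 1.87 (1.74 to 1.997). Few cells carried it: 15.6% of young and 8.44% of adult thinned C1q high cells had a UMI, against 4.98% and 3.50% of other base cells. The CXCR2 ligands were lower in both libraries. Cxcl2 was at 2874 and 2187 CPM against 4830 and 4133, Cxcl1 at 85.9 and 83.5 CPM against 160 and 132, and Cxcl3 at 62.3 and 78.6 CPM against 145 and 212. Of the chemokine list, 5 of 18 measured genes were higher and 4 lower in young, and 5 of 19 higher and 6 lower in adult. The list medians were 0.11 and 0.03. Beside this and the list counts that follow, 1.39% of all measured genes were higher and 2.35% lower in young, and 4.27% in each direction in adult.

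Of 10 measured inflammatory cytokine genes, 4 were lower in young (Il1a, Il1b, Nos2 and Slpi) and 5 in adult (the same with Ptgs2), and none was higher. The list medians were -0.52 and -0.77. Il1b, the precursor of interleukin-1 beta, had 1777 CPM in young and 1768 CPM in adult C1q high cells against 3556 and 3462 CPM, ratios of 0.4997 (0.491 to 0.509) and 0.511. Il1a was at 108 and 97.1 CPM against 262 and 292, and the decoy receptor gene Il1r2 at 27.6 and 48.8 CPM against 80.0 and 112. Slpi, the secretory leukocyte protease inhibitor, was at 134 and 80.3 CPM against 658 and 492, ratios of 0.204 (0.191 to 0.217) and 0.163 (0.148 to 0.179). Inhba, which encodes the activin A subunit, was at 34.4 and 40.1 CPM against 182 and 217.

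Several further lower genes are known from monocytes, neutrophils or hypoxia. S100a8 was at 23.7 CPM in both ages against 101 and 118 CPM, and S100a9 at 4.52 and 16.6 CPM against 50.4 and 80.7; both encode calprotectin, abundant in neutrophils and monocytes. F10, coagulation factor X, was at 48.6 and 82.0 CPM against 180 and 267. Egln3, an oxygen-sensing prolyl hydroxylase induced by hypoxia, was at 14.4 and 21.9 CPM against 52.7 and 72.8. Ly6i was at 264 and 126 CPM against 695 and 480, Mcemp1 at 68.0 and 40.1 CPM against 198 and 140, and Slc7a11, the cystine transporter, at 208 and 132 CPM against 441 and 362.

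The lists place these genes among their relatives. Of 18 measured genes of glycolysis and hypoxia, 4 were lower in each library and none higher, with medians of -0.28 and -0.36. Ndrg1, Egln3 and Ero1l were lower in both. In young, Egln3 reached the level needed to count as measured only in other base cells. Of 19 measured genes of oxidative phosphorylation none was called, with medians of 0.18 and 0.13. With so few of all genes called, no call among 19 is no result about this list. Monocyte genes were lower for 3 of 8 measured in young and 3 of 7 in adult. Plac8, a monocyte gene, was at 1581 and 867 CPM against 2651 and 2708, and Ly6c2, which marks inflammatory monocytes, at 1423 and 651 CPM against 1797 and 1162 (called lower in adult only). Ly6c2 was still detected in 82.0% of young and 50.1% of adult thinned C1q high cells, against 83.0% and 69.0% of other base cells. At that depth 46.2% of 26 young and 40.4% of 57 adult T cells also had a UMI of it. Barcodes with at least 20 mCherry UMIs and no Csf1r had one in 13.4% of 194 young and 6.77% of 266 adult cells. Unthinned, Ly6c2 was at 811 and 556 CPM in the T cells and at 36.2 and 31.3 CPM in those barcodes. How much of it was free RNA was not tested.

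Of 15 resident tissue macrophage genes, only 6 were measured in each library. Of these, 4 were higher in young (Folr2, Selenop, Pf4 and Siglec1) and 4 in adult (Folr2, Selenop, Pf4 and Mrc1), with F13a1 lower in young and medians of 0.75 and 1.04. Folr2 reached the level needed to count as measured only in C1q high cells, and so did Siglec1 in young, so the count and the medians are partly set by that level. Folr2, folate receptor beta, was at 21.4 and 28.1 CPM against 4.36 and 2.81, ratios of 4.91 (3.98 to 6.04) and 9.99 (7.79 to 12.8). It was nevertheless detected in only 7.48% and 8.95% of thinned C1q high cells. Selenop, a selenium carrier, was at 152 and 167 CPM against 90.2 and 62.0. Of the list of purinergic receptor and microglia-like genes, 1 of 5 measured was higher in young and 4 of 5 in adult. Olfml3 in both libraries and Cx3cr1 in adult reached the level needed to count as measured only in C1q high cells. In young, Cx3cr1 did not reach it, so these counts and their difference are partly set by that level. Olfml3, a secreted olfactomedin-like protein, was at 44.1 and 43.5 CPM against 13.9 and 7.93. Sall1, the microglial identity factor, was at 0 in all base cells.

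**Figure D3:**
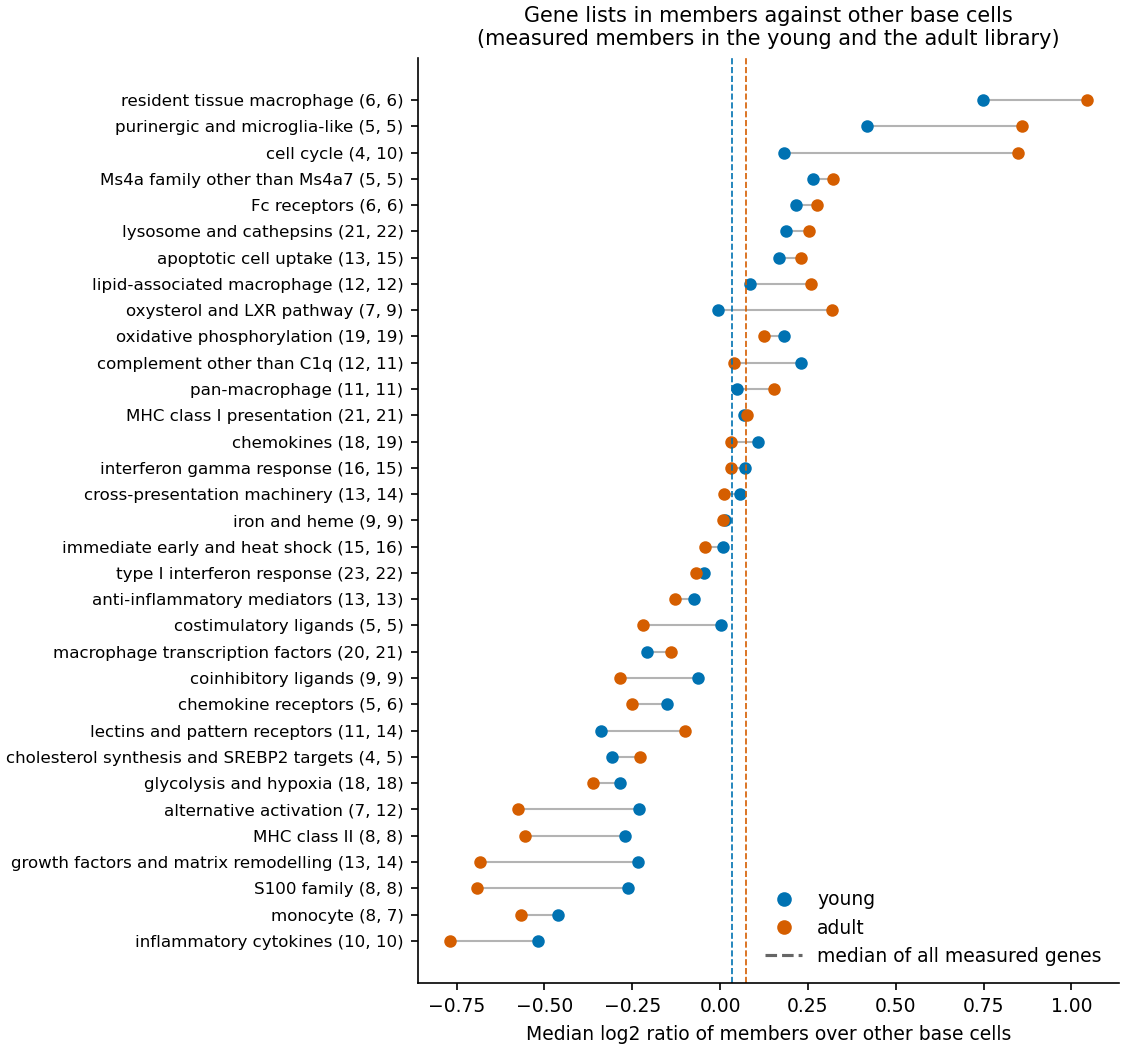
Median log2 ratio of C1q high over other base cells (x axis) for each gene list with at least 4 measured members, young in blue and adult in orange, with the number measured in each library in brackets and the median over all measured genes as dashed lines (0.03 and 0.08). Resident tissue macrophage genes are at the top (0.75 and 1.04) and inflammatory cytokines at the bottom (-0.52 and -0.77).

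Calls among pathway partners of the genes of the rule are set beside the shares of all measured genes. Those were 1.39% higher and 2.35% lower in young, and 4.27% in each direction in adult. Of 12 measured complement genes other than C1q, 1 was higher in young (C4b), and of 11 in adult, C3ar1 and Cd93 were higher and C3 lower. C3ar1, the receptor of the C3a fragment, was at 313 and 239 CPM against 226 and 137. C3, the central component, was at 83.5 and 68.8 CPM against 107 and 131. Of 15 other Ms4a genes, 5 were measured and none was higher, while Ms4a8a was lower in adult. Ms4a6d was at 736 and 744 CPM against 595 and 594, and Ms4a14, another family member and below the level needed to count as measured, at 12.6 and 13.9 CPM against 2.96 and 2.67.

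For the oxysterol that Ch25h makes, the list of oxysterol and LXR genes had 1 of 7 measured higher in young (Apoe) and 3 of 9 in adult (Apoe, Gpr183 and Pltp). Gpr183 and Pltp reached the level needed to count as measured only in adult C1q high cells. The adult count and its difference from young are thus partly set by that level. Pltp, phospholipid transfer protein and a known LXR target, was at 17.3 and 25.1 CPM against 7.42 and 11.6. Gpr183, the receptor of the 25-hydroxycholesterol product 7 alpha,25-dihydroxycholesterol, had 1.99 CPM in young and 31.7 CPM in adult C1q high cells against 3.78 and 19.99. Cyp7b1, the enzyme that makes that ligand, was at 0 in C1q high cells. The LXR targets Abca1 and Abcg1 had ratios of 0.996 and 1.01 in young and 1.27 and 1.30 in adult and were not called. The adult median of the list, 0.32, turned to -0.01 with cells chosen by C1q chains only and to -0.34 at a minimum of 50 CPM.

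Lysosomal genes had medians of 0.19 and 0.25, and genes for apoptotic cell uptake 0.17 and 0.23. Of lysosomal genes, 1 of 21 measured was higher in young (Lgmn), and 4 of 22 in adult, among them Ctsb, Lgmn and Grn, with Ctsk lower. Ctsb, cathepsin B, was at 1997 and 1711 CPM against 1339 and 908, and Grn, progranulin, at 1174 and 1095 CPM against 785 and 607. Of genes for apoptotic cell uptake, none of 13 was called in young, and Itgb5 and Trem2 of 15 were higher in adult. Trem2, a lipid-sensing receptor, was at 387 and 386 CPM against 288 and 228. Fcgrt, the neonatal Fc receptor, was the only Fc receptor gene called, at 35.8 and 34.9 CPM against 19.1 and 18.6. It reached the level needed to count as measured only in C1q high cells.

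No measured gene of the antigen presentation lists was called higher in C1q high cells. MHC class II genes, which load peptides for CD4 T cells, had medians of -0.27 in young, with none of 8 called, and of -0.55 in adult, with 4 of 8 lower (H2-Aa, H2-DMb2, Cd74 and Ciita). Cd74, the invariant chain, had 7101 CPM in young and 7861 CPM in adult C1q high cells against 8992 and 11830 CPM. H2-Aa was at 1983 and 2591 CPM against 2774 and 3997, and Ciita, the class II transactivator, at 23.1 and 27.9 CPM against 27.3 and 47.1. None of 21 MHC class I presentation genes and none of the 13 and 14 measured cross-presentation genes was called in either library, with class I medians of 0.07 and 0.08. Of all measured genes, 1.39% were higher in young and 4.27% in adult. No call among so few genes is near those shares and is no result about these lists. Cd80, a costimulatory ligand, was lower in both, at 15.02 and 22.05 CPM against 26.2 and 34.9.

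Matrix and alternative activation genes were more often called lower than higher. Of all measured genes, 1.39% were higher and 2.35% lower in young, and 4.27% in each direction in adult. Of growth factor and matrix genes, 3 of 13 were lower in young and 8 of 14 in adult, and Timp2 alone was higher. Thbs1, thrombospondin 1, was at 247 and 156 CPM against 465 and 273, and Fn1, fibronectin, at 224 and 508 CPM against 355 and 964. Of alternative activation genes, 3 of 7 were lower in young and 6 of 12 in adult, with Mrc1, the mannose receptor, higher in adult. In young, Ccl24 reached the level needed to count as measured only in other base cells. Chil3, a chitinase-like protein, was at 81.2 and 109 CPM against 128 and 404. Ccl24, an eosinophil attractant, was at 535 CPM in adult C1q high cells against 1131 CPM. In young it was at 7.71 against 39.6 CPM, a direction that turned with Ch25h left out of the score, at equal depth, at 0 mCherry UMIs and without the highest doublet scores (log2 ratio -1.81, then 0.66, 0.18, 0.48 and 0.44).

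Among transcription factors, Batf3 was higher and Bhlhe40 lower in both libraries. These were the only calls of 20 measured in young, where 1.39% of all measured genes were higher and 2.35% lower. In adult, 2 of 21 were higher (Batf3 and Cebpa) and 6 lower (Cebpb, Klf4, Id2, Tfec, Bhlhe40 and Egr2). Batf3 reached the level needed to count as measured only in C1q high cells. Batf3, an AP-1 family factor, was at 23.5 and 30.2 CPM against 13.7 and 17.3, and Bhlhe40, a basic helix-loop-helix repressor, at 86.8 and 118 CPM against 159 and 326. Cebpa, a myeloid lineage factor, was higher in adult, at 101 against 55.2 CPM, and was at 69.6 against 51.7 CPM in young. Maf, a factor of mature macrophages, was not called, at 90.2 and 71.8 CPM against 89.1 and 62.9.

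Of 20 cell cycle genes, 10 were measured in adult and 4 in young. In adult 7 were higher (Ccnb2, Birc5, Mcm3, Mcm5, Mcm6, Stmn1 and Ube2c), with a median of 0.85, and in young Stmn1 alone, with a median of 0.18. Of the 7, all but Stmn1 reached the level needed to count as measured only in adult C1q high cells, so the counts and the difference between the libraries are set in part by that level. Ccnb2, cyclin B2, had 9.57 CPM in young and 24.5 CPM in adult C1q high cells against 2.89 and 3.77 CPM, and Birc5, survivin, had 14.8 and 35.6 CPM against 6.57 and 9.40. Mki67, the standard proliferation marker, was at 3.72 and 7.92 CPM against 4.53 and 4.61, under the level needed to count as measured. Few cells were involved: thinned C1q high cells with a Birc5 UMI were 3.40% (2.09 to 5.204) in young and 5.63% (3.56 to 8.40) in adult, against 1.35% and 2.01% of other base cells. T cell genes, whose cells in these libraries carried 190 and 82.7 CPM of Birc5, also summed higher in adult than in young C1q high cells (23.6 against 6.51 CPM), and barcodes with at least 20 mCherry UMIs and no Csf1r carried 156 and 147 CPM of Birc5. With 0 mCherry UMIs the adult list median was 0.53. Their part in this was not tested further.

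The 5 genes did not rank the same cells. Choosing 1000 cells by the C1q chains alone kept 686 of the C1q high cells, and choosing by Ms4a7 and Ch25h alone kept 540. Cells chosen by the chains alone still had more of both other genes, with Ms4a7 ratios of 2.18 (2.10 to 2.26) in young and 3.07 (2.95 to 3.19) in adult and Ch25h ratios of 2.19 (2.05 to 2.33) and 2.40 (2.16 to 2.67). Cells chosen by Ms4a7 and Ch25h had C1qa ratios of 1.95 (1.92 to 1.98) and 2.56 (2.51 to 2.61). These values come from the same cells and libraries and are descriptions.

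Down the score, some of the accompanying genes graded and others did not. From the first 500 cells through ranks 501 to 1000, 1001 to 2000, 2001 to 4000 and 4001 to 9655, Cd72 in young was at 315, 205, 133, 104 and 73.9 CPM, and in adult at 349, 207, 114, 67.4 and 30.8 CPM. Ccl7 in young was at 2354, 1085, 865, 763 and 569 CPM. Plac8 in adult went the other way, at 668, 1059, 1082, 1525 and 3504 CPM. Fcrls, an Fc receptor-like gene known from microglia, was at 93.7, 33.3, 21.6, 7.38 and 3.04 CPM in adult, and at 8.54, 2.65, 0.384, 0.704 and 0.507 CPM in young. Apoe in young was at 2592 CPM in the first 500 and at 2810.5 CPM in ranks 501 to 1000. Pf4 in young was at 415, 536, 209, 218 and 203 CPM, and Ccl8 in adult at 272, 115, 146, 96.6 and 97.1 CPM.

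C1q high cells varied widely among themselves in genes outside the rule. The variance over the mean at 4000 UMIs, which is near 1 for counting noise alone, had a median of 1.09 in young and 1.11 in adult over 2136 genes. It was 48.8 and 39.2 for Fth1, ferritin heavy chain, 33.9 and 33.0 for Apoe, 28.9 and 40.4 for Pf4, and 26.5 and 42.2 for Cd74. It was 33.0 and 26.4 for Ccl5, 25.0 and 31.4 for Actb, 20.5 and 31.0 for Ccl7, and 20.4 and 29.7 for Ccl12. For the genes of the rule, whose spread the choice narrows, it lay between 2.46 and 3.64. Summed MHC class II counts (Cd74, H2-Aa, H2-Ab1 and H2-Eb1) ran from a 10th percentile of 2 through a median of 34 to a 90th percentile of 119.6 per 4000 UMIs in young, and from 2 through 27 to 179 in adult. Some C1q high cells thus carried almost no class II and others a great deal.

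The variable genes went together in blocks across cells. The points share a library and fixed depth, and the rule constrains its own genes, so correlations are descriptions. Ccl2 and Ccl7 had Pearson r of 0.68 across 588 young and 0.80 across 391 adult cells, and Ccl12 had 0.51 and 0.64 with Ccl7. Ch25h had r of 0.43 and 0.35 with Ccl2 and of 0.41 and 0.33 with Ccl12. With C1qa it had -0.26 and -0.09, but choosing cells on a mean that holds both genes sets these against each other. The 3 chains had r between 0.39 and 0.48 with each other. MHC class II genes formed a second block (0.86 and 0.90 for Cd74 with H2-Aa), which ran against the chemokines in adult cells (-0.40 for Cd74 with Ccl2, -0.21 in young). Fth1 and Ftl1, the ferritin chains, had 0.51 and 0.64, and Apoe and Pf4 0.31 and 0.27.

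**Figure D4:**
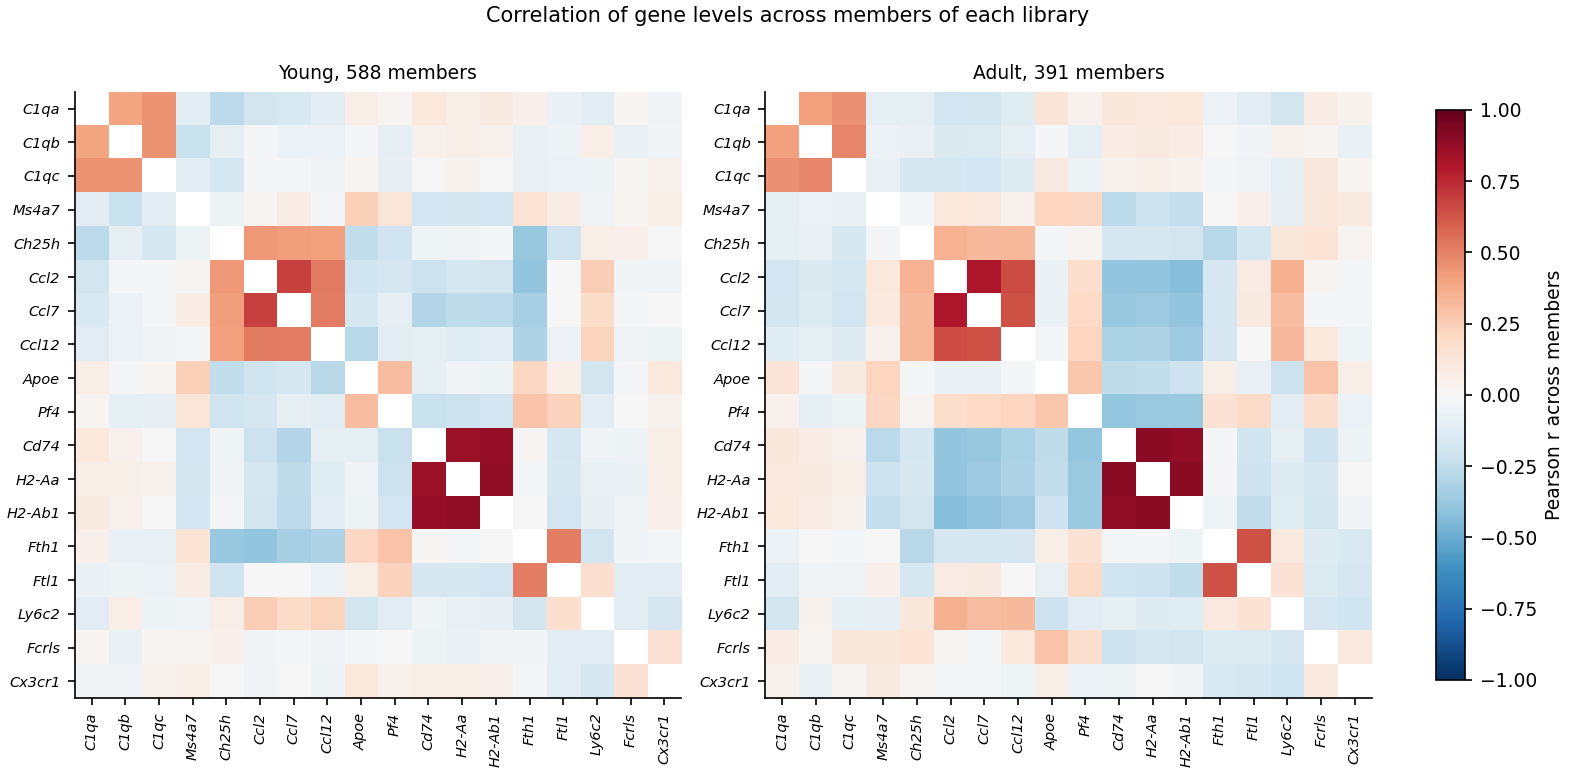
Pearson r between the thinned log levels of pairs of genes (colour scale from -1 to 1) across 588 young (left) and 391 adult (right) C1q high cells. The C1q chains, the chemokines Ccl2, Ccl7 and Ccl12, the MHC class II genes and the ferritin chains form separate red blocks.

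Young and adult C1q high cells differed in 179 of 4757 measured genes that were higher in young (3.76%) and 169 that were lower (3.55%). In other base cells, 166 of 4613 were higher (3.6%) and 93 lower (2.02%), a split that became 130 and 121 with size factors, against 208 and 146 in C1q high cells. The median log2 ratio over all measured genes was 0.01 in C1q high cells and 0.04 in other base cells. The largest age differences of C1q high cells were mostly found in other base cells as well.

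Mid1, a microtubule-associated ubiquitin ligase, had 84.4 CPM in young and 17.1 CPM in adult C1q high cells, a ratio of 4.92 (3.95 to 6.20), against 86.2 and 18.6 CPM in other base cells. Selenom, a selenoprotein of the endoplasmic reticulum, was at 393 and 112 CPM, and 260 and 84.9 CPM in other base cells. Nos2, inducible nitric oxide synthase, was at 233 and 91.6 CPM, a ratio of 2.54 (2.30 to 2.82) against 1.57 in other base cells. Fpr2, a formyl peptide receptor, had a ratio of 2.49 (2.05 to 3.04), Pla2g7, which inactivates platelet-activating factor, 2.31 (2.17 to 2.45), and Clec4d, a C-type lectin, 2.24 (2.11 to 2.37). The remaining genes named by size were 2310031A07Rik, St3gal5, Il12rb1 and Acvrl1, with ratios of 3.48, 2.85, 2.74 and 2.30. All 10 were also higher in young other base cells, with ratios between 1.57 and 4.62.

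Ccl24 was the gene furthest on the adult side, with 7.71 CPM in young and 535 CPM in adult C1q high cells, a ratio of 0.0144 (0.0109 to 0.0187), against 39.6 and 1131 CPM in other base cells. The young value rests on 58 UMIs and depends on the cells chosen: it was 1.87 CPM in ranks 1 to 500, 13.5 in 501 to 1000 and 49.1 in 1001 to 2000. The log2 ratio of young over adult, -5.41, was -3.09 without Ch25h in the score, -3.25 at 0 mCherry UMIs and -3.70 at equal depth. Mrc1 was at 15.9 and 67.1 CPM, a ratio of 0.238 (0.192 to 0.293) against 0.246 in other base cells. Spp1, osteopontin, was at 282 and 807 CPM, and 403 and 1014 CPM in other base cells. Timp1 was at 27.2 and 86.3 CPM, Cxcl14 at 50.4 and 140 CPM, and Cd63, a tetraspanin of late endosomes, at 201 and 460 CPM. Hspa1a was at 49.6 and 148 CPM, but its reads cannot be cleanly parted from those of its near-identical copy Hspa1b.

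Fcrls and Cx3cr1 were most abundant in adult C1q high cells. Fcrls was at 5.58 CPM in young (42 UMIs) and 62.9 CPM in adult (334 UMIs) C1q high cells, and at 0.542 and 6.39 CPM in other base cells. It was detected in 1.02% (0.375 to 2.21) of young and 14.8% (11.5 to 18.8) of adult thinned C1q high cells, against 0.203% and 1.82% of other base cells and 0 of 57 adult T cells. The ratio of young over adult was 0.0887 (0.0627 to 0.122) in C1q high and 0.0849 in other base cells. Cx3cr1, the fractalkine receptor, was at 19.3 and 61.2 CPM, and at 15.8 and 17.3 CPM in other base cells. Its adult ratio to other base cells was 3.55 (3.10 to 4.05), and 1.22 (1.01 to 1.45) in young.

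The adult C1q high cells were also higher than the young ones in Cd81 (ratio of young over adult 0.430, 0.385 to 0.481, against 0.862 in other base cells) and in Syngr1, a synaptogyrin (0.564, 0.475 to 0.669, against 1.21). Mt2, a metallothionein, was at 35.6 and 88.6 CPM in C1q high cells and at 70.1 and 66.8 CPM in other base cells. Apoe had a ratio of 0.584 (0.573 to 0.595) against 0.994 in other base cells. None of these differences between the groups of cells was tested. Ccl8 was the sole gene called in opposite directions by age, higher in young C1q high cells (1.60, 1.48 to 1.72) and lower in young other base cells (0.650). Plac8 was higher in young C1q high cells (1.82, 1.76 to 1.89) and near equal in other base cells (0.979). Chil3, Timp1 and Wfdc17 had ratios nearer to 1 in C1q high cells than in other base cells, at 0.748, 0.316 and 0.864 against 0.315, 0.160 and 0.434.

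**Figure D5:**
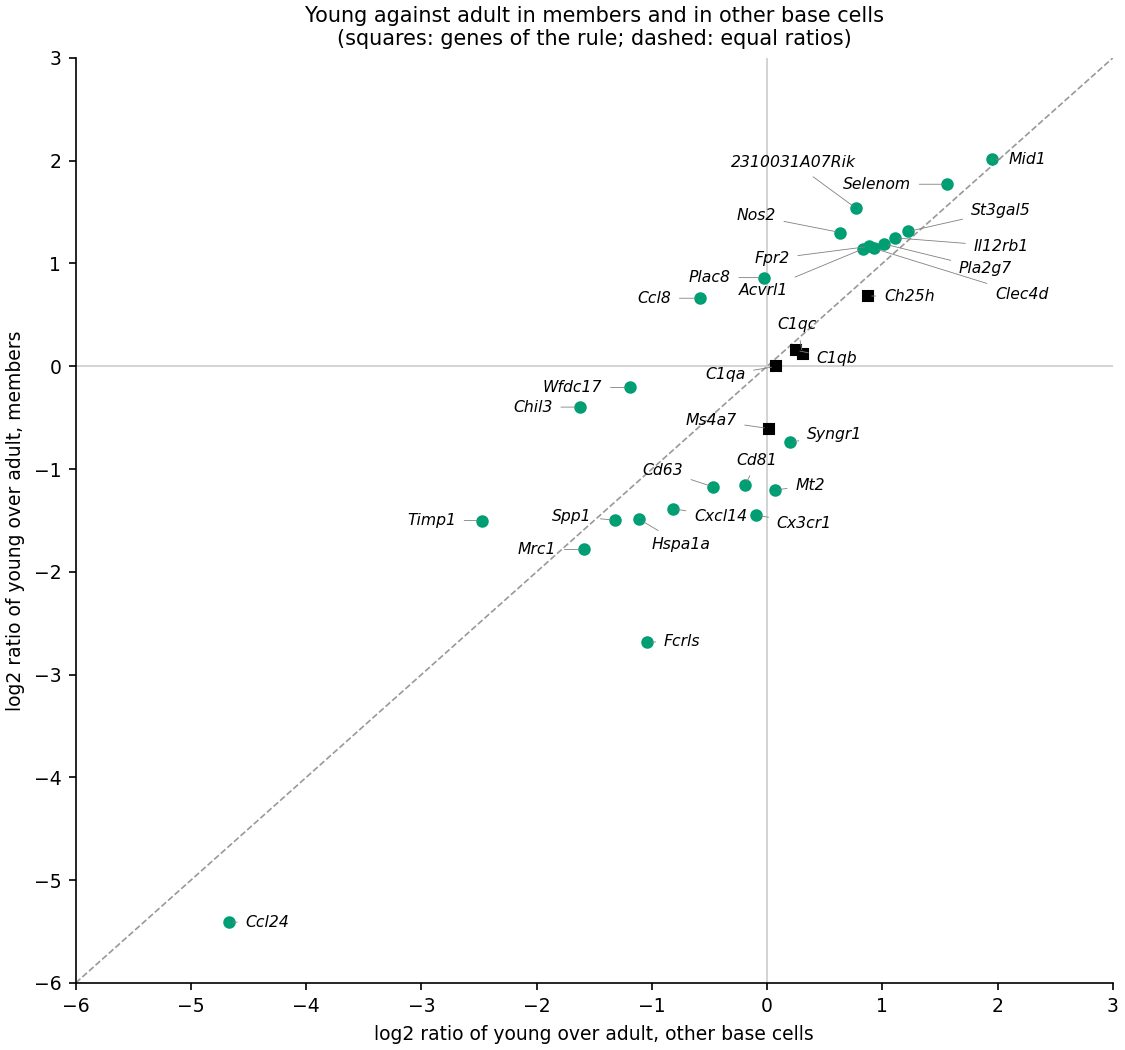
Log2 ratio of young over adult (pseudocount 5 CPM) in other base cells (x axis) and in C1q high cells (y axis) for the genes named by age and the 5 genes of the rule (black squares), with equal ratios as a dashed line. Most genes lie near the line, Ccl24 lies at the lower left, and Ccl8 is at -0.58 in other base cells and 0.66 in C1q high cells.

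By list, the young C1q high cells had more interferon, iron and inflammatory transcripts and fewer of cholesterol synthesis. Beside the list counts by age, 3.76% of all measured genes were higher and 3.55% lower in young C1q high cells. In young other base cells the shares were 3.6% and 2.02%. Among type I interferon response genes, 11 of 22 were higher in young C1q high cells and none lower, with a median of 0.53, and 9 of 23 were higher in other base cells with a median of 0.49. Ifit1, an antiviral RNA-binding protein, was at 91.0 and 44.3 CPM, a ratio of 2.06 (1.77 to 2.39). Irf7, the interferon master regulator, was at 880 and 567 CPM, and Isg15, a ubiquitin-like modifier, at 1090 and 726 CPM. Against other base cells of the same library, this list had 0 of 23 higher and 1 lower in young and 1 of 22 higher and 1 lower in adult.

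Of 8 measured iron and heme genes, 5 were higher in young C1q high cells (Hmox1, Slc11a1, Ftl1, Blvrb and Slc48a1), with a median of 0.63. The same 5 were higher in young other base cells. Hmox1, heme oxygenase 1, was at 422 and 266 CPM, and at 655 and 274 CPM in other base cells. Of 10 inflammatory cytokine genes, 5 were higher in young C1q high cells (Il18, Nos2, Ptgs2, Acod1 and Slpi) with a median of 0.55, and 2 of 10 in other base cells. Ptgs2, cyclooxygenase 2, was at 274 and 152 CPM, and at 409 and 377 CPM in other base cells. Il1b had a ratio of 1.01 (0.979 to 1.03), at 1777 and 1768 CPM.

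Of 5 measured cholesterol synthesis genes, 4 were lower in young C1q high cells (Fdps, Insig1, Msmo1 and Srebf2), with a median of -0.70, and the same 4 in other base cells. Among C1q high cells, Fdps reached the level needed to count as measured only in adult, so this count is partly set by that level. Fdps, farnesyl diphosphate synthase, was at 15.8 and 39.8 CPM, and Srebf2, the master regulator, at 27.6 and 49.9 CPM. Nr1h3, which encodes LXR alpha, was at 27.2 and 12.6 CPM. Of 12 lipid-associated macrophage genes, Fabp5, Plin2, Lipa and Cd36 were higher in young C1q high cells and Spp1 lower, with a median of 0.36. In young other base cells the same 4 and Abca1 were higher and Spp1 lower, with a median of 0.43. Fabp5, a fatty acid binding protein, was at 669 and 302 CPM, and Plin2, a lipid droplet coat protein, at 581 and 286 CPM.

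MHC class II genes were not called by age in C1q high cells (0 of 8, median -0.31), and 2 of 8 were lower in young other base cells. Alternative activation genes were lower in young C1q high cells for 5 of 11 measured (Mrc1, Mgl2, Ccl24, Cdh1 and Egr2), with a median of -0.40, and in young other base cells for 8 of 12, with a median of -1.22. Among C1q high cells, Mrc1 and Ccl24 reached the level needed to count as measured only in adult, so the count of 5 is partly set by that level. Cell cycle genes were lower in young C1q high cells for 4 of 10 measured (Ccnb2, Birc5, Stmn1 and Ube2c), and none of 4 was called in other base cells. All but Stmn1 reached the level needed to count as measured only in adult C1q high cells, so this count is partly set by that level. Of monocyte genes, Ly6c2 had 1423 CPM in young and 651 CPM in adult C1q high cells, a ratio of 2.19 (2.10 to 2.27) against 1.55 in other base cells. Ly6c2 and Plac8 were the monocyte genes higher in young C1q high cells, 2 of 6 measured.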

How the data were processed

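The authors deposited UMI counts per gene and barcode, 1 matrix per library, made with Cell Ranger 3.0.2 on mm10 per the submitters' processing notes; for the annotation and the barcode filter, the sources used here give nothing, and no barcode had fewer than 500 UMIs. Of 31054 features, 99.6% matched GENCODE M21 by identifier. The C1q high cells and the gene lists were chosen with earlier results of these data known. UMIs were summed over C1q high and over other base cells of each library and divided by their total (CPM). With 1 library per age and cells that share a library, no p-value was computed. CPM carry exact Poisson intervals, ratios conditional Clopper-Pearson intervals and shares exact binomial intervals. Log2 ratios used a pseudocount of 5 CPM. For shares, variation and correlation, each cell was thinned to 4000 UMIs. Genes named by size had at least 50 CPM in the higher group: 12 per direction against other base cells in both libraries, 10 per direction by age and 5 per direction by the difference of age ratios. The 8 most variable genes and genes of the fixed lists were named too. Scrublet was run with an expected 6% of doublets. The scripts, written in Python 3.11.15 with numpy 2.4.6, scipy 1.17.1, pandas 2.3.3, matplotlib 3.10.9 and scanpy 1.11.5, were tested on simulated data. Alternatives varied the number of cells chosen, the score genes, the depth, the filters, the scaling, the pseudocount and the minimum level. Leaving out barcodes found in both libraries was chosen after seeing the data.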

Additional observations from a re-analysis of the deposited data

Results flagged for a closer look

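Ccl8 was higher in young than in adult C1q high cells (log2 ratio 0.66) and lower in young than in adult other base cells (-0.58), opposite directions under the same contrast. The difference was not tested, since each age is 1 library.

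Barcodes outside the base cells also reached the score limit. In the young library there were 67: 40 without a Csf1r UMI (median 6679 UMIs), 21 with at least 2 mCherry UMIs (median 11900 UMIs) and 6 with too many mitochondrial counts. In the adult library there were 41: 18 without a Csf1r UMI (median 6613 UMIs), 16 with at least 2 mCherry UMIs (median 16810.5 UMIs) and 7 with too many mitochondrial counts.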

How the results depend on the processing

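No paired analysis was possible because there is 1 library per age, and no replicate could be left out. Genes higher in both libraries, 50 as reported, numbered 76 with 500 cells chosen, 29 at a minimum of 50 CPM and 239 with no minimum. Genes lower in both, 85, numbered 55 and 226 at those minimum levels. Genes higher in young C1q high cells, 179, numbered 118 and 438. Genes lower in young, 169, numbered 69 and 705, 281 with 500 cells chosen and 265 at 4000 UMIs per cell. The ratio of shares, 1.19, was 1.04 without Ch25h and, by construction, 0.791 with 500 cells from each library. The adult median of the oxysterol and LXR pathway list, 0.32, was -0.0053 with the C1q chains alone, -0.34 at 50 CPM and -0.030 with no minimum. The adult median of the lipid-associated macrophage list, 0.26, was -0.028 with the C1q chains alone. The young median of the lectins and pattern receptors list, -0.34, was 0.0039 at 4000 UMIs and 0.018 with no minimum. The young log2 ratio of Ccl24 to other base cells, -1.81 from 58 UMIs, was 0.66 without Ch25h, 0.18 at 4000 UMIs, 0.48 at 0 mCherry UMIs and 0.44 without the highest doublet scores. Apart from the minimum levels and the construction named, the cause was not tested. Of 2565 values of named genes, 4 turned direction and 740 moved beyond their counting interval, and of 1437 list medians 6 turned and 238 moved by more than 0.1. Intervals cover counting error only and say nothing of the spread between animals.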
